A study of Arabidopsis thaliana with 18 samples.

Results

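The study asks whether seedlings that lack normal ROS1 function answer the hormone abscisic acid (ABA) as wild type seedlings do. The members are all 18 libraries of the series, which fall into 6 groups of 3, and the quantity described is the genotype by ABA interaction: the log2 ABA response of a mutant minus the log2 ABA response of wild type. The material was whole Arabidopsis thaliana seedlings 12 d old, and each mRNA library was made from a pool of 5 plants. The groups were ros1-3 with ABA, ros1-3 mock, ros1-4 with ABA, ros1-4 mock, wild type (WT) with ABA and WT mock. All groups were submerged in water for 6 h, the ABA groups with 50 µM of the hormone and the mock groups with its solvent alone. No other allele or agent is named in the labels, and they do not say in which accession the alleles were carried. The interaction was taken for ros1-3, for ros1-4 and as the mean of both alleles. The interactions of both alleles use the same 6 WT libraries and are therefore not independent of each other.

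ABA is the main hormone of water deficit in plants. It binds PYR/PYL receptors, which then block clade A protein phosphatases (PP2C), and this frees SnRK2 kinases to activate transcription factors that bind ABA-responsive elements with the core ACGTG. Genes of dehydration tolerance are switched on by this route, and the genes for several of the phosphatases and receptors are themselves regulated by it. ROS1 is a DNA glycosylase that cuts out 5-methylcytosine and so keeps some genes from becoming methylated. In an interaction, a gene that ABA raises less in a mutant than in wild type has a negative value.

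NIC3 was the gene whose interaction passed the test in the mean of both alleles. It encodes a nicotinamidase, an enzyme that turns nicotinamide into nicotinic acid in the salvage of NAD. AT5G23220, the locus of NIC3, is annotated in TAIR10.1 as 1 exon with no intron (chromosome 5, 7819608 to 7820760, minus strand). Its neighbour NIC2 (7825858 to 7826611, minus strand) encodes a second nicotinamidase, and the coding sequences of both, 597 bases each, were identical at 89.3% of positions. The 250 bases upstream of the annotated start are shown for NIC3, for NIC2 as the closest relative, and for PP2CA (AT3G11410), a clade A phosphatase gene that ABA raised to a similar degree in all 3 genotypes. They were read from the RefSeq TAIR10.1 genome on the coding strand, and capitals mark ACGTG or its reverse complement CACGT.
NIC3, chr5:7820761-7821010, minus strand: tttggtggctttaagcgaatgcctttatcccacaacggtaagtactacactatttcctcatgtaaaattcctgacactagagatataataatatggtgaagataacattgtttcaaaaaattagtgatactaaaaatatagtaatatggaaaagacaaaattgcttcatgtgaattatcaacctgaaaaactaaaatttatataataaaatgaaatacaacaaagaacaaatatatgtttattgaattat
NIC2, chr5:7826612-7826861, minus strand: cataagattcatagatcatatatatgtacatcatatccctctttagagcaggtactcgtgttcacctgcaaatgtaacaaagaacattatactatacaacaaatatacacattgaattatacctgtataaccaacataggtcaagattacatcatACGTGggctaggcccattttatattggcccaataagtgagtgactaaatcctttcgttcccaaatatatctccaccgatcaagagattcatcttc
PP2CA, chr3:3585851-3586100, minus strand: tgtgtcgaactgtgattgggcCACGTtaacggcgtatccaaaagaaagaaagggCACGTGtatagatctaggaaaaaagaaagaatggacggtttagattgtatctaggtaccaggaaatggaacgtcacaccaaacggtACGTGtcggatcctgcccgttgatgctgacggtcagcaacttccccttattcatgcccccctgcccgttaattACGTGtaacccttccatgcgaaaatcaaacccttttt
NIC3 held 0 matches of ACGTG in this window, NIC2 held 1 and PP2CA held 5, where a match on each strand of CACGTG counts separately. The windows depend on the annotated starts, and the annotated genes differ in length (1153 bases in NIC3, 754 in NIC2). They need not cover matching stretches of NIC3 and NIC2, and bases inside the genes were not scanned. The same window held 2 CG dinucleotides in NIC3, 4 in NIC2 and 15 in PP2CA. Of 15841 tested genes with such a window, 24% held ACGTG on either strand, against 32.1% of the genes that rose with ABA and 19.7% of the genes that fell. A match is a description of the letters and no evidence of binding, and ATHB7, a gene raised by ABA as strongly as PP2CA, held 0 matches.

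Counted reads per library ranged from 3304038 to 10275773, and 15853 of 32399 loci passed the filter on low counts. Genes for photosynthesis (36 of 37 listed), root markers (17 of 21) and stomatal or guard cell genes (15 of 18) passed the filter, and 0 of 9 seed storage genes did. The share of multiply aligned reads differed between genotypes. With ABA it ranged over 5.6% to 7.48% (ros1-3), 3.86% to 4.46% (ros1-4) and 6.32% to 11.4% (WT), and in mock over 6.53% to 9.45% (ros1-3), 3.46% to 4.62% (ros1-4) and 9.8% to 13% (WT). Its part in the results was not tested beyond a fit that held it as a covariate, given beside the results it changed.

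The ABA response itself was large in all 3 genotypes, and 1 gene passed the test for a difference in it in the mean of both alleles. Averaged over the genotypes, 9411 of 15853 genes (59.4%) changed with ABA at an adjusted p under 0.05 by edgeR's quasi-likelihood F test, 4611 higher (29.1%) and 4800 lower (30.3%). Within genotypes the changed genes numbered 6052 in ros1-3 (38.2%), 6062 in ros1-4 (38.2%) and 6102 in WT (38.5%). For the ros1-3 interaction 0 of 15853 genes (0%) passed edgeR's test, 743 (4.69%) had an unadjusted p under 0.05, and DESeq2 called 10. For the ros1-4 interaction edgeR called 0 genes (0%), 521 (3.29%) had an unadjusted p under 0.05, and DESeq2 called 1. The mean interaction gave 1 call (0.00631%), NIC3, with 640 genes (4.04%) at an unadjusted p under 0.05, 1.89% of all genes higher and 2.15% lower, and DESeq2 called 2. Called the same way in both alleles were 0 genes by edgeR and 1 gene by DESeq2. At an adjusted p under 0.1 the counts were 2 in ros1-3 (0.0126%), 1 in ros1-4 (0.00631%) and 2 in the mean (0.0126%).

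**Figure D1:**
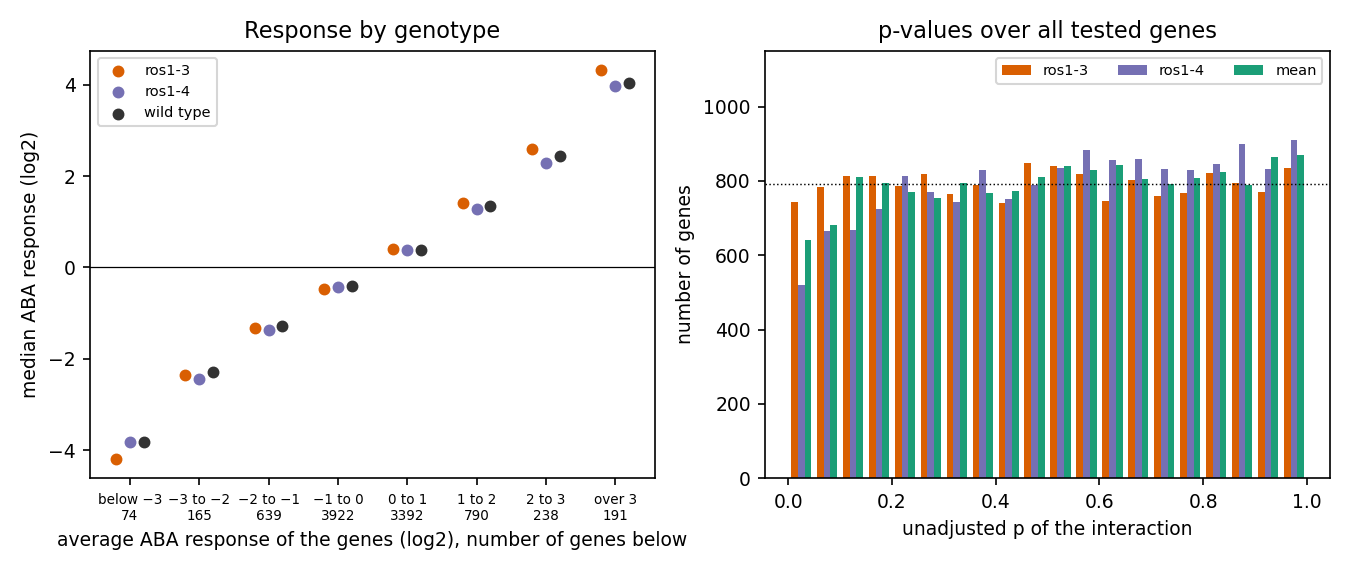
Left: median log2 ABA response in ros1-3, ros1-4 and wild type (points) for genes grouped by their average ABA response, with the number of genes below each group. Right: number of genes in bins of the unadjusted p of the ros1-3, ros1-4 and mean interaction, with a dotted line at the even share of 793 genes; the lowest bin held 743, 521 and 640 genes.

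NIC3 rose with ABA in wild type and, to a smaller extent, in ros1-4, and its ABA response in ros1-3 did not pass the test. In ros1-3 it was at 7.06, 7.31 and 6.40 CPM (read counts scaled by edgeR to the effective library size) with ABA, against 4.199, 5.04 and 5.30 CPM in mock. In ros1-4 it was at 12.4, 8.16 and 13.3 CPM with ABA, against 6.17, 4.85 and 8.41 CPM in mock. Wild type libraries were at 31.2, 36.1 and 32.8 CPM with ABA, against 5.01, 7.19 and 2.69 CPM in mock. The WT ABA libraries lay above the other 15 with no overlap. The ros1-3 ABA libraries lay above those of ros1-3 mock, and the ranges of ros1-4 ABA and ros1-4 mock overlapped. The reads behind these levels were 29, 33 and 29 in ros1-3 ABA, 20, 20 and 19 in ros1-3 mock, 87, 44 and 111 in ros1-4 ABA, 31, 20 and 45 in ros1-4 mock, 272, 239 and 219 in WT ABA and 20, 35 and 27 in WT mock.

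The log2 ABA response of NIC3 was 0.53 (SE 0.31, edgeR adjusted p = 0.195) in ros1-3, 0.80 (SE 0.245, adjusted p = 0.0125) in ros1-4 and 2.88 (SE 0.23) in WT. Its mean interaction was -2.21 (SE 0.31, 95% interval -2.86 to -1.56, edgeR adjusted p = 0.00725), a weaker response than in WT. By allele the interaction was -2.35 (95% interval -3.19 to -1.51, edgeR adjusted p = 0.0746) in ros1-3 and -2.07 (-2.80 to -1.35, adjusted p = 0.0947) in ros1-4, and neither passed on its own. Between ros1-3 and ros1-4 the interaction differed by -0.28 (SE 0.40, edgeR adjusted p = 1). In mock NIC3 did not differ from WT beyond the spread (log2 0.09 in ros1-3 and 0.54 in ros1-4). DESeq2 called NIC3 in both alleles (-2.31, adjusted p = 0.000475, and -2.04, adjusted p = 0.00151). The mean stayed past the threshold when each of the 18 libraries was left out in turn, with adjusted p from 0.00049 to 0.0482, the highest without WT mock replicate 3 (-1.76). When the share of multiply aligned reads entered as a covariate it was -2.37 (edgeR adjusted p = 0.0122). NIC3 was already named as a ROS1 target in earlier work that may rest on these libraries, so the call is not independent evidence.

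NIC2 had no call in any interaction, and whether it differs from NIC3 was not tested. Its level was 5.85, 5.54 and 3.97 CPM in ros1-3 ABA, against 3.36, 6.30 and 6.97 CPM in ros1-3 mock. It was 5.85, 6.86 and 5.51 CPM in ros1-4 ABA, against 7.17, 5.57 and 5.79 CPM in ros1-4 mock. In wild type it was 5.74, 8.30 and 5.84 CPM with ABA, against 3.504, 5.55 and 6.66 CPM in mock. All 6 groups overlapped, and the mean interaction was -0.31 (SE 0.31, edgeR adjusted p = 1). Of 1123 windows of 31 bases along the NIC3 transcript, 6 (0.534%) had an exact match at another place in the genome. Among the 7 tested genes of NAD synthesis and salvage (10 listed), 1 was called in the mean interaction, NIC3, and the list median was -0.02, beside -0.00 over all tested genes. QS, a quinolinate synthase of the de novo route, was at 0.28 (unadjusted p = 0.0725), and NADS, a NAD synthetase, was at 0.16 (unadjusted p = 0.102).

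**Figure D2:**
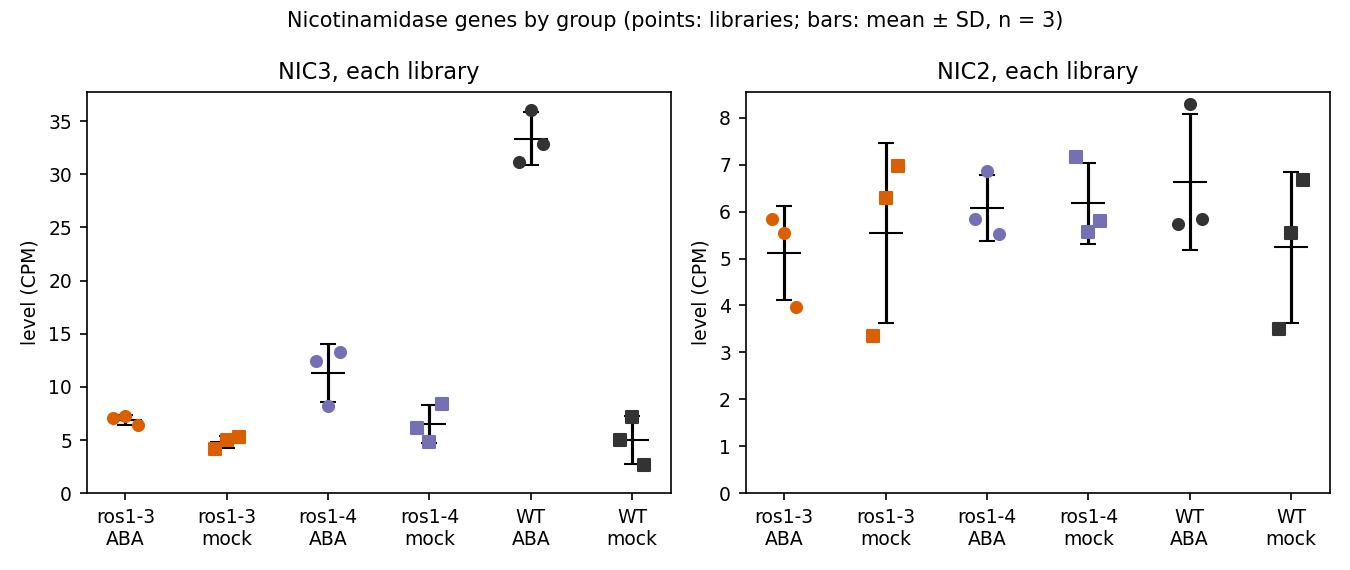
Level in CPM of NIC3 (left) and NIC2 (right) in each library of the 6 groups, with mean ± SD (n = 3). For NIC3 the WT ABA libraries lie at 31.2 to 36.1 CPM and all others at or below 13.3 CPM; for NIC2 all groups overlap.

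ROS1 and 2 genes of the stomatal lineage were followed in any case. ROS1 (AT2G36490) was at 47.3, 56.0 and 58.3 CPM in ros1-3 ABA, against 51.2, 53.4 and 57.7 CPM in ros1-3 mock. In ros1-4 it was at 35.5, 39.1 and 47.6 CPM with ABA, against 38.4, 31.5 and 33.5 CPM in mock. The WT libraries were at 96.5, 108 and 120 CPM with ABA, against 94.6, 82.6 and 86.1 CPM in mock. Every mutant library lay below every WT library, and both alleles still gave reads of the gene. The ROS1 interaction was -0.30 in ros1-3, -0.06 in ros1-4 and -0.18 in the mean (SE 0.14, edgeR adjusted p = 1).

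EPF2, a secreted peptide that limits how many cells enter the stomatal lineage, was low in the mutants in both treatments. It was at 2.19, 2.66 and 1.104 CPM in ros1-3 ABA, against 3.99, 4.03 and 5.30 CPM in ros1-3 mock, and at 0.285, 0 and 0.360 CPM in ros1-4 ABA, against 1.59, 0.727 and 0.748 CPM in ros1-4 mock. Wild type libraries were at 6.19, 4.08 and 5.69 CPM with ABA, against 6.01, 6.58 and 8.46 CPM in mock. Within each treatment the mutant libraries lay below those of WT. Its interaction was -0.72 in ros1-3, -1.58 in ros1-4 and -1.15 in the mean (SE 0.45, unadjusted p = 0.018, edgeR adjusted p = 1). The ros1-4 ABA levels rest on 2, 0 and 3 reads. TMM, the receptor-like protein that EPF2 signals through, was the reverse case in level, with ABA ranges of 60.2 to 62.2 CPM (ros1-3), 83.3 to 90.7 CPM (ros1-4) and 30.9 to 37.9 CPM (WT), and mock ranges of 50.6 to 71.0 CPM (ros1-3), 83.2 to 92.1 CPM (ros1-4) and 33.5 to 38.2 CPM (WT). All TMM libraries of the mutants lay above all of WT. The TMM interactions were 0.06 in ros1-3 and 0.08 in ros1-4, both with 95% intervals inside 1.5-fold. Its average ABA response was not called (log2 -0.04, edgeR adjusted p = 0.601), so this bound describes no response that was kept. Of the 15 tested stomatal lineage and guard cell genes, 0 were called in any interaction. Both intervals were inside 1.5-fold for 3 of the 15, beside 37% of all tested genes. In bulk libraries, fewer cells of a type and less RNA per cell cannot be told apart.

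For many genes both interactions could be bounded. The bound used here is that the 95% intervals of both interactions lie inside 1.5-fold (0.585 on the log2 scale), since a p above the threshold does not show that responses are alike. Of 9411 ABA-responding genes, 3691 met it, 1986 higher and 1705 lower with ABA, and of all 15853 tested genes 5872 (37%) met it. Of the 3691, 1859 rose and 1669 fell by under 1 on the log2 scale in the average response. The median WT response of all responding genes of that size was 0.377 for rises and -0.411 for falls. A bound wider than the response does not show that such a response was kept. The largest responses among the genes inside the bound included genes of the ABA pathway. PYL4, an ABA receptor, was at 20.2, 13.3 and 18.8 CPM in ros1-3 ABA, against 311, 307 and 328 CPM in ros1-3 mock, and at 19.1, 19.8 and 23.4 CPM in ros1-4 ABA, against 329, 338 and 411 CPM in ros1-4 mock. WT levels were 21.5, 21.6 and 17.8 CPM with ABA, against 314, 384 and 341 CPM in mock. Every ABA library lay below every mock library, and in each treatment the range of each mutant overlapped that of WT. Its log2 ABA response was -4.18 in ros1-3, -4.10 in ros1-4 and -4.09 in WT.

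PP2CA was at 480, 537 and 462 CPM in ros1-3 ABA, against 26.9, 35.3 and 31.2 CPM in ros1-3 mock, and at 529, 501 and 450 CPM in ros1-4 ABA, against 44.0, 34.9 and 30.8 CPM in ros1-4 mock. Wild type libraries were at 532, 506 and 494 CPM with ABA, against 28.3, 37.8 and 35.3 CPM in mock. PP2CA was higher in every ABA library than in every mock library, and in each treatment the mutant ranges overlapped that of WT. ABI1, a second clade A phosphatase, had log2 ABA responses of 2.54 in ros1-3, 2.35 in ros1-4 and 2.54 in WT (interactions -0.01 with interval -0.24 to 0.22, and -0.19 with interval -0.42 to 0.04). ATHB7 and ATHB12, homeodomain transcription factors that ABA induces, had interactions of 0.05 and -0.19 in ros1-3 and of -0.11 and -0.09 in ros1-4. FBH3, a bHLH factor also called AKS1 (ABA-responsive kinase substrate), had 0.13 in ros1-3 and -0.14 in ros1-4. The other genes of this group by size of response were FMO GS-OX4, a flavin monooxygenase of glucosinolate oxidation, and AT5G61820, AT1G73480 and AT3G54040. AT3G54040 fell with ABA (-2.65 in ros1-3, -2.54 in ros1-4 and -2.54 in WT).

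**Figure D3:**
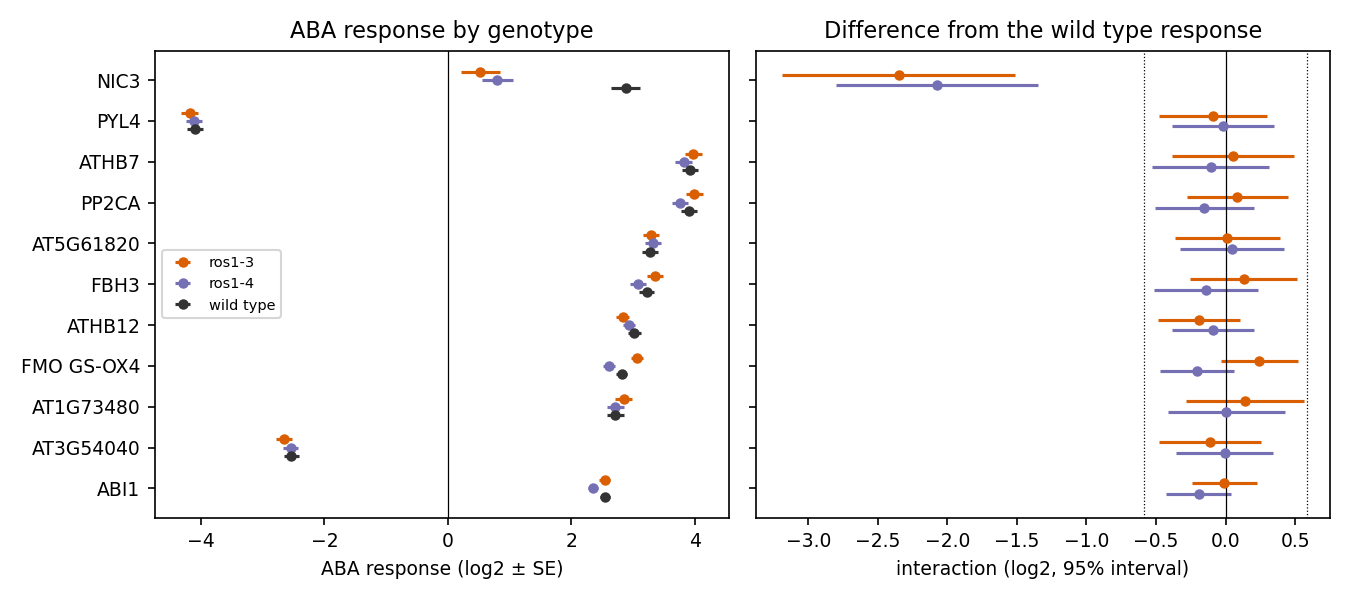
Left: log2 ABA response (± SE) in ros1-3, ros1-4 and wild type for NIC3 and for the 10 genes with the largest ABA response among those with both interactions inside 1.5-fold. Right: the interactions with 95% intervals, dotted lines at 1.5-fold; NIC3 at -2.35 and -2.07 lies outside and the 10 other genes inside.

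Across sizes of response the median interaction of ros1-3 had the sign of the response in every group, a stronger response than in WT. It ran from 0.0343 to 0.218 for rises and from -0.0449 to -0.195 for falls. In ros1-4 it ran from -0.182 to 0.0114 for rises and from -0.148 to 0.0188 for falls. These medians were not tested. In the 191 genes that rose by over 3 on the log2 scale, the median response was 4.32 in ros1-3, 3.98 in ros1-4 and 4.03 in WT. In the 74 genes that fell by over 3 it was -4.19 in ros1-3, -3.83 in ros1-4 and -3.83 in WT. For genes that rose by 1 to 2 the medians were 1.42, 1.27 and 1.34 in the same order of genotypes, and for genes that fell by 1 to 2 they were -1.32, -1.36 and -1.29. For rises of 2 to 3 they were 2.59, 2.28 and 2.43, and for falls of 2 to 3 they were -2.36, -2.44 and -2.29. The share of genes inside the 1.5-fold bound was 54.8% for rises below 1 and 2.09% for rises over 3. The half-width of the 95% interval of the mean interaction had a median of 1.33-fold over all genes, of 1.95-fold for genes with average log2 CPM under 2 and of 1.19-fold for those over 5.

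**Figure D4:**
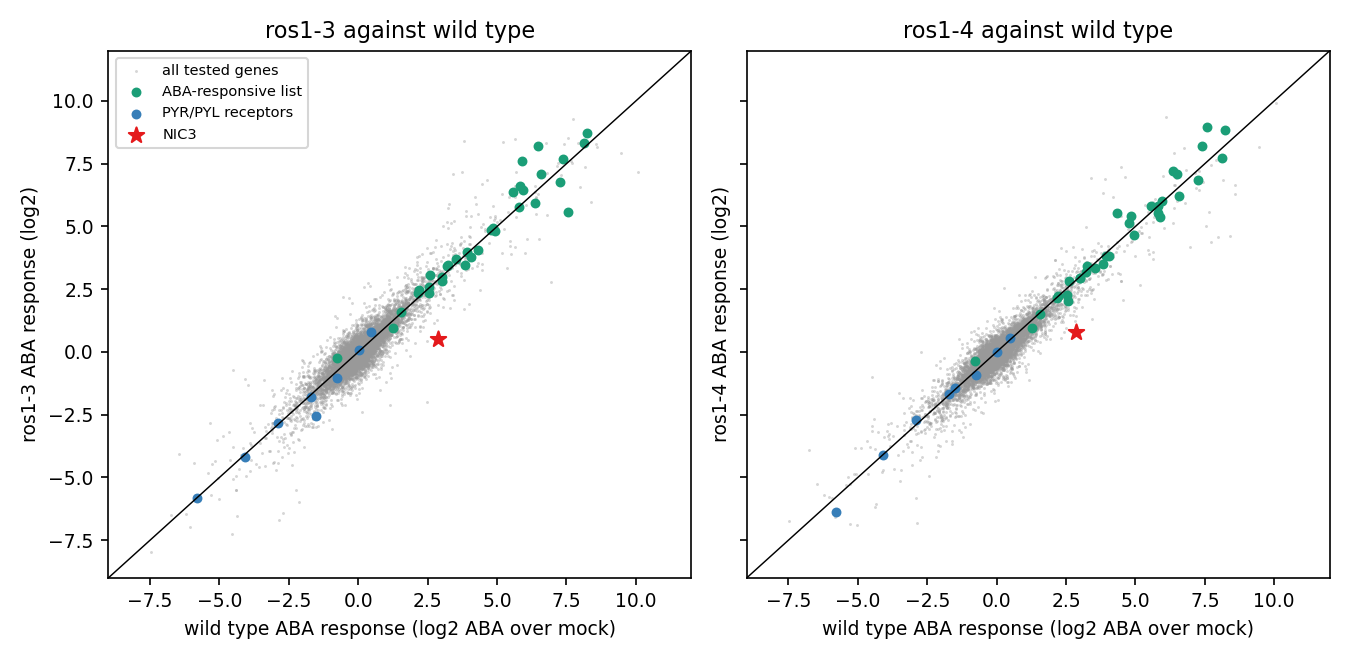
Log2 ABA response of ros1-3 (left) and ros1-4 (right) against that of wild type for all 15853 tested genes (grey), with ABA-responsive genes, PYR/PYL receptors and NIC3 marked; the line marks equal response. NIC3 lies below the line in both panels, at 0.53 and 0.80 against 2.88.

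Whether responses were on balance weaker or stronger depended on how the direction was set. Among the 9411 responding genes, 409 had an unadjusted p under 0.05 in the mean interaction. Over all 15853 tested genes 640 (4.04%) did, fewer than the even share of 793, and the share among responding genes was near that 4.04%. In the direction of the average response of the 3 genotypes, 149 of the 409 were weaker and 260 stronger in the mutants. The balance of weaker and stronger was not tested. With the direction taken from WT alone, among 6102 genes called in WT, 218 were weaker and 100 stronger. This direction shares its libraries with the interaction, which the WT response enters with a minus sign, so it tilts the count toward weaker. The average direction has no such tilt where the spread is equal across groups. By allele and average direction, 148 were weaker and 360 stronger in ros1-3, and 155 were weaker and 169 stronger in ros1-4. They make up 508 and 324 of the 9411, beside 4.69% and 3.29% of all tested genes in the same order. By allele and WT direction, 194 were weaker and 169 stronger in ros1-3, and 203 were weaker and 57 stronger in ros1-4. Over all responding genes, whatever their p, 41.8% were weaker in ros1-3 and 49.9% in ros1-4 with the average direction, and 51.3% in ros1-3 and 61.2% in ros1-4 with the WT direction. Of all these genes NIC3 alone passed the adjusted threshold.

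Of the tested receptors, phosphatases, kinases, transcription factors and metabolic genes of the ABA pathway, 0 were called in an interaction by edgeR (0% of all tested genes in each allele), DESeq2 called 0 of them, and 1, ABA2, had an unadjusted p under 0.05 in the mean interaction. Of 8 tested PYR/PYL receptors (14 listed), 6 fell with ABA and 1 rose in the average response, beside 59.4% of all tested genes changed. PYL6 was at 0.244, 0.443 and 0.442 CPM in ros1-3 ABA, against 18.7, 25.7 and 25.1 CPM in ros1-3 mock, and at 0.285, 0.185 and 0.120 CPM in ros1-4 ABA, against 14.5, 14.3 and 24.1 CPM in ros1-4 mock. Wild type libraries were at 0.574, 0.453 and 0.150 CPM with ABA, against 24.0, 33.9 and 15.8 CPM in mock. PYL6 was lower in every ABA library than in every mock library, with overlapping ranges of mutants and WT in each treatment. The receptor list had a median interaction of -0.07 in ros1-3 and of 0.00 in ros1-4. PYL1 was at -0.23 (unadjusted p = 0.0986) and PYL7 at 0.20 in the mean interaction.

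All 8 tested clade A phosphatases (9 listed) rose with ABA, beside 29.1% of all tested genes. Their median responses were 4.15 in ros1-3, 3.92 in ros1-4 and 3.96 in WT. HAB2 had a mean interaction of -0.21 (unadjusted p = 0.0676). Of 8 tested kinases and transcription factors of ABA signalling (12 listed), 5 rose and 0 fell, beside 29.1% and 30.3% of all tested genes. ABF3 and ABF2, bZIP factors that bind ABA-responsive elements, had mean interactions of 1.22 and -0.92 with unadjusted p of 0.0968 and 0.102, and each is counted from reads unique to 1 of its 3 models. The ABF3 value was 0.66 without WT mock replicate 2 and 1.85 without WT mock replicate 3. Of 11 tested genes of ABA metabolism and transport (17 listed), 9 rose and 1 fell, beside the same shares of all tested genes. ABA2, a xanthoxin dehydrogenase of ABA synthesis, was at -0.42 (unadjusted p = 0.0288), and NCED3, the rate-limiting dioxygenase of ABA synthesis, was at -0.02.

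Of 33 tested ABA-responsive genes (36 listed), 32 rose and 1 fell, beside 29.1% and 30.3% of all tested genes. The median response was 4.05 in ros1-3, 4.66 in ros1-4 and 4.32 in WT. Taken gene by gene, the median interaction was 0.09 in ros1-3, -0.02 in ros1-4 and 0.09 in the mean, beside -0.00 over all genes. The order of the response medians is therefore not the order of the interactions. RD29A, a dehydration marker, was at 582, 437 and 589 CPM in ros1-3 ABA, against 15.8, 18.9 and 20.9 CPM in ros1-3 mock, and at 407, 437 and 295 CPM in ros1-4 ABA, against 13.1, 12.4 and 7.29 CPM in ros1-4 mock. The levels in WT were 463, 421 and 361 CPM with ABA, against 13.5, 11.3 and 18.6 CPM in mock. In each treatment the range of each mutant overlapped that of WT. KIN1, a cold- and ABA-inducible gene, had log2 responses of 5.78 in ros1-3, 5.54 in ros1-4 and 5.80 in WT. The list members with the smallest p were both dehydrins: LTI30 at -0.35 (unadjusted p = 0.0177) and ERD10 at 0.35 (unadjusted p = 0.0245), one weaker and one stronger in the mutants, and neither passed the adjusted threshold. ERD10 is counted from the reads unique to 1 of its 2 transcript models.

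Across the other lists, from photosynthesis to nutrient transport, 0 tested members passed in an interaction apart from NIC3, which is also on the list of earlier ROS1 targets. The 36 photosynthesis genes had a median of -0.09, and 25 of them were inside the 1.5-fold bound, beside 37% of all tested genes. Of 14 circadian clock genes 9 were inside it, and the median was 0.09. The 18 jasmonate genes had a median of 0.26, and 5 of them had a positive mean interaction at an unadjusted p under 0.05, beside 1.89% of all tested genes. These were MYC2, the main transcription factor of jasmonate signalling (0.24), CYP94B3, which inactivates the hormone (0.45), the lipoxygenases LOX2 (0.75) and LOX4 (0.90), and PDF1.2b, a defensin with 0 reads in the WT ABA libraries. LOX2 was at 535, 745 and 765 CPM in ros1-3 ABA, against 37.8, 34.5 and 35.7 CPM in ros1-3 mock, and at 535, 563 and 416 CPM in ros1-4 ABA, against 64.7, 80.5 and 22.1 CPM in ros1-4 mock. WT libraries stood at 502, 433 and 311 CPM with ABA, against 39.3, 38.6 and 76.1 CPM in mock. With ABA the ros1-3 libraries lay above those of WT and the ros1-4 range overlapped WT, and in mock the range of ros1-4 overlapped WT and that of ros1-3 lay below it. A positive interaction does not mean a higher level. MYC2 with ABA was at 76.3 to 97.1 CPM in ros1-3, 84.6 to 89.9 CPM in ros1-4 and 79.7 to 94.4 CPM in WT. In mock it was at 38.8 to 43.3 CPM (ros1-3), 40.2 to 44.4 CPM (ros1-4) and 47.1 to 50.4 CPM (WT), lower in both mutants. For CYP94B3 no mutant ABA library lay above the WT ABA range, and for LOX4 the ABA ranges overlapped. Each of the 5 had an edgeR adjusted p of 1.

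Of 14 tested genes of nitrate, ammonium, phosphate, sulfate and potassium transport (18 listed), 2 had an unadjusted p under 0.05 in the mean interaction, both lower, beside 2.15% of all tested genes, and the list median was -0.10. HAK5, a high-affinity potassium transporter, was at 2.92, 2.21 and 5.96 CPM in ros1-3 ABA, against 42.6, 64.96 and 49.6 CPM in ros1-3 mock, and at 11.1, 13.5 and 13.4 CPM in ros1-4 ABA, against 91.8, 76.3 and 79.6 CPM in ros1-4 mock. Wild type levels were 7.23, 8.60 and 6.59 CPM with ABA, against 48.3, 25.7 and 18.7 CPM in mock. With ABA the ros1-3 libraries lay below those of WT and the ros1-4 libraries above them, and in mock ros1-4 lay above WT and ros1-3 overlapped it. The mean interaction was -1.29 (SE 0.37, unadjusted p = 0.00209, edgeR adjusted p = 1), and it passed without WT mock replicate 1 (-1.72, adjusted p = 0.0349). AKT1, an inward potassium channel, was at -0.40 (unadjusted p = 0.0126, edgeR adjusted p = 1), and at -0.22 without WT mock replicate 3. Of 22 tested genes of cell wall expansion (24 listed), 3 had an unadjusted p under 0.05 in the mean interaction, all positive. Over all tested genes 1.89% did, and the list median was 0.04. Elsewhere ACS8, an enzyme of ethylene synthesis, was at 1.22 (unadjusted p = 0.00216), and HSP18.2, a small heat shock protein, was at -1.05 (unadjusted p = 0.0122). The 10 flavonoid and anthocyanin genes had a median of -0.36 and the 12 hypoxia core genes one of -0.22, with 0 members of either at an unadjusted p under 0.05.

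**Figure D5:**
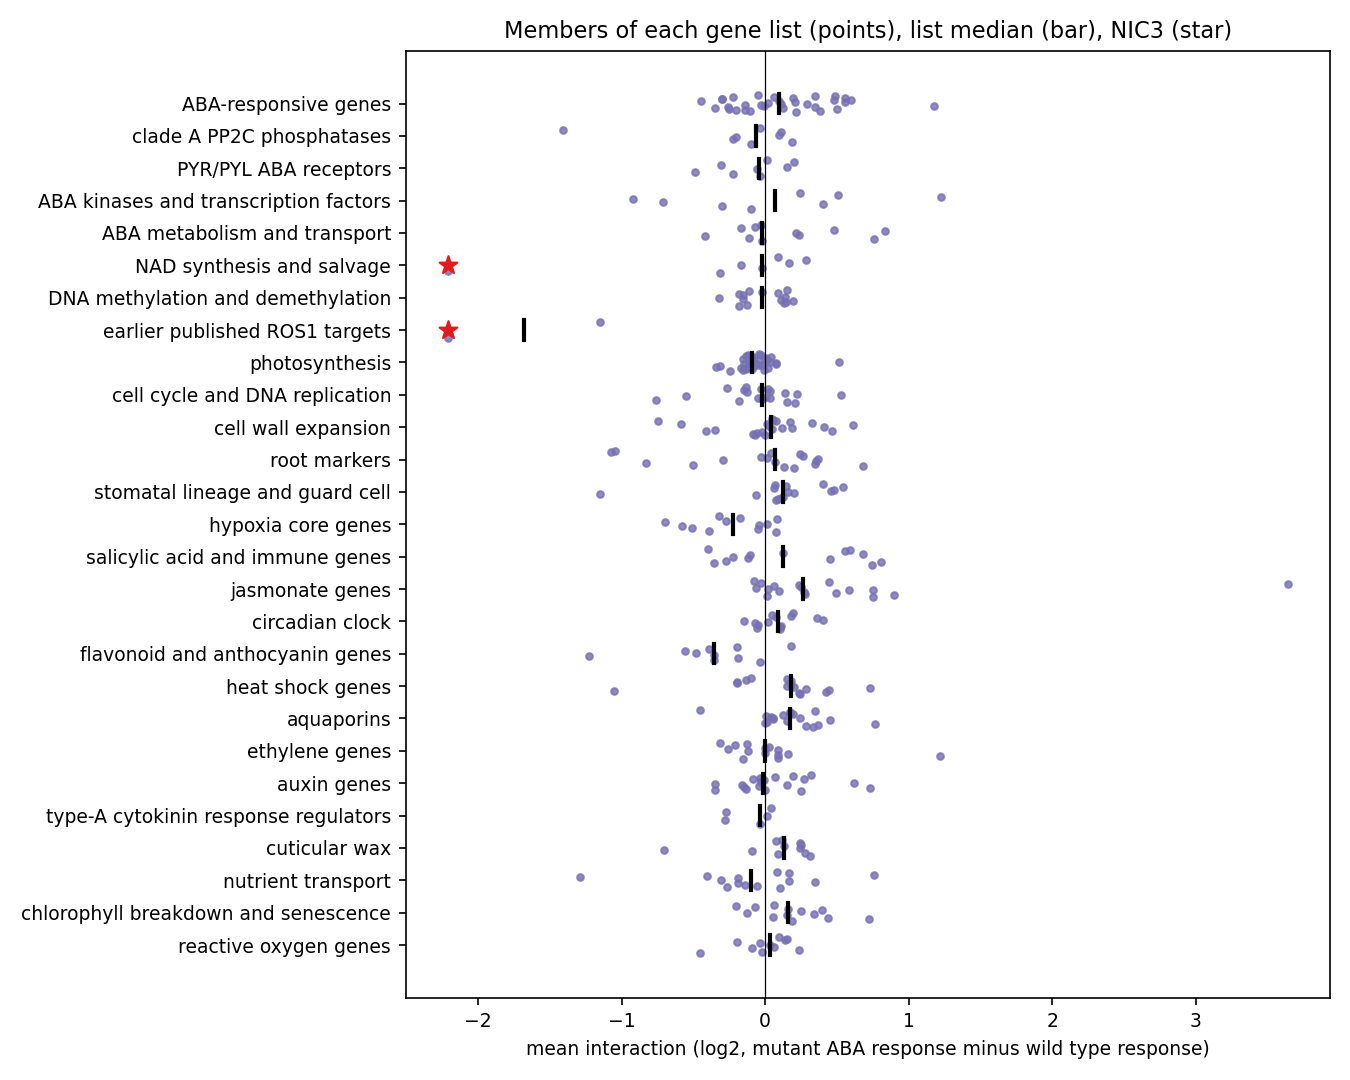
Mean interaction (log2) of each tested member of the gene lists (points) with the list median (bar); NIC3 is marked by a star at -2.21 on the 2 lists that hold it. Most members lie near 0 and the jasmonate point at 3.64 is PDF1.2b, which had 0 reads in WT ABA.

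The genes next in order of p, chosen after their values were seen, did not pass the adjusted threshold. ILA, a HEAT-repeat protein of translation control, was at 0.244, 0.443 and 0.221 CPM in ros1-3 ABA, against 1.26, 1.51 and 1.39 CPM in ros1-3 mock, and at 0.570, 0.927 and 0.240 CPM in ros1-4 ABA, against 2.19, 0.485 and 0.748 CPM in ros1-4 mock. In wild type the levels were 9.41, 9.81 and 8.84 CPM with ABA, against 4.51, 4.52 and 3.78 CPM in mock. All mutant libraries lay below all WT libraries in both treatments. Every mutant ABA library was below 1 CPM, so the ILA interaction rests on few reads there. The mean interaction was -2.76 (SE 0.48, edgeR adjusted p = 0.0787), and DESeq2 called it (-2.80, adjusted p = 0.0411). In edgeR it passed without ros1-4 mock replicate 2 (-2.91, adjusted p = 0.0288) and without ros1-4 ABA replicate 2 (-2.97, adjusted p = 0.0442), and over all left-out libraries its adjusted p ran up to 0.759. ILA has 2 transcript models, and only reads unique to 1 of them are counted.

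UGT85A1, a glucosyltransferase, was at 85.5, 84.4 and 92.7 CPM in ros1-3 ABA, against 44.9, 53.4 and 46.3 CPM in ros1-3 mock, and at 99.5, 94.0 and 88.5 CPM in ros1-4 ABA, against 57.0, 64.2 and 61.9 CPM in ros1-4 mock. The WT levels were 75.1, 47.4 and 49.8 CPM with ABA, against 51.6, 70.7 and 58.7 CPM in mock. The ranges with ABA and in mock were apart in both mutants and overlapped in WT. Its mean interaction was 0.81 (SE 0.17, edgeR adjusted p = 0.444), and it was called without WT ABA replicate 1 (1.06, adjusted p = 0.002). PDF2.1, a plant defensin, was at 89.2, 99.0 and 77.3 CPM in ros1-3 ABA, against 27.9, 20.1 and 24.5 CPM in ros1-3 mock, and at 34.1, 83.3 and 71.0 CPM in ros1-4 ABA, against 23.9, 25.9 and 20.2 CPM in ros1-4 mock. Levels in WT were 242, 206 and 200 CPM with ABA, against 40.1, 26.5 and 25.2 CPM in mock. WT ABA libraries lay above all ABA libraries of the mutants, and the mean interaction was -1.22 (SE 0.28, edgeR adjusted p = 0.863). OPT1, an oligopeptide transporter, was at 0.67 (edgeR adjusted p = 0.948, log2 ABA response -1.20 in ros1-3, -1.57 in ros1-4 and -2.05 in WT). AT3G46280 was at 1.35 (edgeR adjusted p = 1), with ABA responses of 2.11 in ros1-3, 1.74 in ros1-4 and 0.58 in WT. AT5G50760, also called SAUR55, was at 0.71, FDH, a formate dehydrogenase, at 0.47 and FLA2, an arabinogalactan protein, at 0.39.

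The alleles were also set against each other, which tests whether an interaction is particular to 1 of them. Of 15853 genes 1 passed (0.00631%), with 691 (4.36%) at an unadjusted p under 0.05 and 4 (0.0252%) at an adjusted p under 0.1. It was ZW9 (AT1G58270), a TRAF-like protein, and this gene was singled out after its values were seen. It was at 124, 137 and 111 CPM in ros1-3 ABA, against 14.7, 19.4 and 18.4 CPM in ros1-3 mock, and at 74.6, 58.4 and 66.3 CPM in ros1-4 ABA, against 24.7, 24.2 and 23.0 CPM in ros1-4 mock. The wild type libraries stood at 352, 331 and 290 CPM with ABA, against 81.3, 79.7 and 98.4 CPM in mock. Mutant levels lay below WT levels within each treatment, and the ABA response was 2.83 in ros1-3, 1.47 in ros1-4 and 1.90 in WT. The interaction was 0.93 in ros1-3 and -0.42 in ros1-4, a difference of 1.36 (SE 0.19, edgeR adjusted p = 0.00557). AT2G28400 had an interaction of 1.29 in ros1-3 (edgeR adjusted p = 0.0746) and of 0.14 in ros1-4, and the difference of 1.15 did not pass (adjusted p = 0.154).

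Genes whose level differed between genotypes were also looked at for their ABA response. Averaged over ABA and mock, edgeR called 715 genes in ros1-3 against WT (4.51%) and 218 in ros1-4 against WT (1.38%), and 79 of them lay the same way in both alleles, 20 higher and 59 lower. These comparisons share the WT libraries. Of the 79, edgeR called 0 in the ros1-3, ros1-4 or mean interaction. In the difference between the alleles it called 1, ZW9 (1.27%, beside 0.00631% of all tested genes). DESeq2 called 3 of the 79 (3.8%) in an interaction: ILA in the mean, and FDH and ZW9 in ros1-3. Over all 15853 tested genes DESeq2 called 10 in ros1-3, 1 in ros1-4 and 2 in the mean. In the mean interaction 14 of the 79 (17.7%) had an unadjusted p under 0.05, beside 4.04% of all tested genes, and 20 (25.3%) were inside the 1.5-fold bound, beside 37% of all tested genes. The set was chosen from the same libraries as the interactions. AT2G33830, named dormancy associated gene 2 in the reference, was lower in both mutants (log2 -3.43 in ros1-3 and -3.09 in ros1-4, edgeR adjusted p = 2.2e-16 and 2.38e-15) with interactions of 0.10 and 0.05. Its average ABA response was not called (log2 -0.008, edgeR adjusted p = 0.936), so these interactions describe no response that was kept. It has 2 transcript models. This set was chosen after the values were seen.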

How the data were processed

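The submitters' processing notes name Trim Galore 0.2.8, TopHat2 2.0.8, SAMtools, HTSeq 0.6.1 and the genome TAIR10 for the 18 libraries. Each deposited file holds raw counts made by the authors, 1 value for each transcript model. No source used here gives the strand setting of the counting, which leaves a gene and its antisense neighbour inseparable. Reads shared by models of 1 locus were set apart as ambiguous, and the 5883 loci with several models keep only reads unique to 1 model. Summary rows without a gene (5 in a file, 36.7% to 44.5% of its total) were left out.

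Models were summed to 32399 loci by the text before the dot, of which 31900 matched the TAIR10.1 reference. The counts (3304038 to 10275773 per library) were analysed with edgeR 4.0.16 (R 4.3.3): TMM factors of 0.907 to 1.12, filterByExpr, the quasi-likelihood F test in a single model of the 18 libraries (12 residual degrees of freedom) and Benjamini-Hochberg adjustment over 15853 genes, with calls at an adjusted p under 0.05. SE is the absolute log2 fold change over the square root of F. It is approximate: for AT4G07820 it was 0.044 in the mean interaction, beside 2.37 in ros1-3 and 1.04 in ros1-4. Some intervals may therefore be too narrow, and the counts inside the bound carry this limit. Alternatives were DESeq2 1.42.0, RLE scaling, no filter or a stricter one, robust dispersion, a covariate for multiply aligned reads, single-model loci, 12-library fits, a replicate block, leaving out each library, a 2-fold bound, an adjusted p under 0.1 and the WT direction of the response. The scripts were tested on simulated data.

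The labels describe 3 pooled samples per group without saying whether they were grown separately, so the p-values measure only the spread between these pools; no pair of libraries agreed within counting noise. The members and the 28 gene lists (495 of 499 entries matched) were chosen with earlier results of these data known. Named by rule were ROS1, NIC3, EPF2 and TMM, then the called genes with the largest interactions, then the 10 largest ABA responses among genes with both interactions inside 1.5-fold (called and bounded genes at an average log2 CPM of at least 1), then from each list the called members or, with none, the 2 with the smallest p of the mean interaction. Other genes named were chosen after their values were seen, as was the genotype effect averaged over treatments.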

Additional observations from a re-analysis of the deposited data

Results flagged for a closer look

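The NIC3 mean interaction stood out because the ABA response differed between the mutants and wild type by a test of the difference itself: it was -2.212 on the log2 scale (edgeR adjusted p = 0.00725), with ABA libraries at 6.40 to 7.31 CPM in ros1-3, 8.16 to 13.3 CPM in ros1-4 and 31.2 to 36.1 CPM in WT. ZW9 stood out because its interaction differed between the alleles: the ros1-3 minus ros1-4 value was 1.356 (edgeR adjusted p = 0.00557), from 0.93 in ros1-3 and -0.42 in ros1-4.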

How the results depend on the processing

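Depth limits the genes with low counts, whose intervals are wider, and a filter or tool changed the counts of calls; the cause was not tested. Genes called in the ros1-3, ros1-4 and mean interaction, in the allele difference and the same way in both alleles were 0, 0, 1, 1 and 0 in the reported fit. They were 16, 3, 5, 7 and 1 with no filter, 10, 1, 2, 7 and 1 with DESeq2, and 2, 1, 2, 4 and 1 at an adjusted p under 0.1. The multiply aligned share as a covariate gave 4 in ros1-3 and 2 in the difference, and robust dispersion gave 3 in ros1-3. Leaving out each library gave 0 to 6 in ros1-3, 0 to 2 in ros1-4, 1 to 2 in the mean (2 without WT mock replicate 1 or 2, WT ABA replicate 1, ros1-4 mock replicate 2 or ros1-4 ABA replicate 2), 1 to 5 in the difference and 0 to 1 in both. By library, ros1-3 gave 6 without WT ABA replicate 1, 3 without WT mock replicate 1 or 3 and 1 without WT mock replicate 2. In ros1-4 there were 2 without WT ABA replicate 3 and 1 without WT mock replicate 2. In the difference there were 5 without WT mock replicate 3, 3 without ros1-4 ABA replicate 2, and 2 without WT ABA replicate 3 or ros1-3 mock replicate 1.

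The NIC3 mean interaction kept its direction and call in every alternative run (leave-one-out -2.6 to -1.76). By allele NIC3 also passed with no filter (-2.35 in ros1-3, -2.05 in ros1-4) and with DESeq2 (-2.31 and -2.04), in ros1-3 with the covariate (-2.47) or robust dispersion (-2.35), and over left-out libraries it ran from -2.74 to -1.9 in ros1-3 and from -2.46 to -1.62 in ros1-4. Past the threshold it went without WT mock replicate 2 in both alleles and without WT ABA replicate 1 in ros1-3 (-2.40). In a fit of the 12 libraries of WT and ros1-4 its adjusted p was 0.863 (edgeR), and in the fit of WT and ros1-3 it was 0.064. The count inside the bound was 6467 with 2-fold in place of 1.5-fold, and the stronger responses numbered 100 with the WT direction.

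With the replicate number as a block, NIC3 was at -2.21 (edgeR adjusted p = 0.0295) and the allele difference gave 2 calls; no other count of calls changed by over 1.5 times. The numbers do not pair the libraries: same-numbered pairs correlated at a median of -0.0291, others at 0.0269, 2 of 45 pairs were over 0.1, and 3 of 18 libraries correlated best with their own number.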

Other observations

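DESeq2 called further genes that edgeR did not. In the ros1-3 interaction they were FDH (0.63, DESeq2 adjusted p = 0.0156), UGT85A1 (0.93, 0.0366), AT2G28400 (1.29, 0.0059), AT5G05600 (1.15, 0.0195), NSP5, a nitrile specifier protein of glucosinolate breakdown (0.71, 0.0195), ACD11, named for accelerated cell death (0.56, 0.0131), AT2G34610 (-2.04, 0.000983) and AT1G47395 (-4.64, 0.018). In ros1-4 the DESeq2 log2 interactions of these genes were 0.32 for FDH, 0.69 for UGT85A1, 0.13 for AT2G28400, 0.40 for AT5G05600, 0.16 for NSP5, -0.03 for ACD11, 0.49 for AT2G34610 and -1.69 for AT1G47395, with adjusted p of 1 each. The difference between the alleles was called by DESeq2 also for AT2G34610 (-2.53, adjusted p = 0.000527), ACD11 (0.59, 0.00643), AT4G33720 (3.69, 0.021), BCAT4, an aminotransferase of glucosinolate synthesis (2.14, 0.0321), RNS1, a ribonuclease (1.42, 0.0361), and AT2G28400 (1.16, 0.0389).

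By chromosome, the share of genes with an unadjusted p under 0.05 in the mean interaction was 4.51% on chromosome 1, 3.71% on 2, 4.12% on 3, 3.75% on 4 and 3.86% on 5.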
